A study of Mus musculus with 4 samples.

Results

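Mitotic spindle and kinetochore genes were described across the progenitors and neurons of the mouse medial ganglionic eminence (MGE), the ventral forebrain zone that gives rise to pallidal neurons and cortical interneurons. The set held 50 genes, chosen by name, of the 32285 genes in the matrices, and every one was found once by its symbol. Single-cell RNA sequencing had been performed with 10x Genomics droplets on e14.5 embryos of a C57/BL6 and ICR mix, with 2 WT libraries and 2 libraries carrying the label St18(-/-), here named null. The null embryos carried, in the whole animal, an allele of the zinc finger transcription factor St18 that has lost some coding exons but leaves a transcript, and both genotypes came from heterozygous parents. MGE of genotyped embryos had been pooled within a genotype before dissociation, and neither their number nor their sex was given for any pool in the sources used here. The study describes the libraries of each genotype as biological replicates with littermate controls, and p-values here measure the spread between these libraries.

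Cells in mitosis need a short-lived set of proteins. Condensins and topoisomerase compact and untangle the chromosomes, Cdk1 with cyclins A and B starts mitosis, and the kinetochore ties each centromere to spindle microtubules. The checkpoint kinases hold the cell until every kinetochore is attached, the anaphase-promoting complex (APC/C) then marks securin and cyclin B for destruction, and the central spindle guides cytokinesis. In the embryonic forebrain, radial glia divide at the ventricle and basal progenitors divide in the subventricular zone, while neurons have left the cell cycle. Transcripts of this set rise in G2 and mitosis, and are used as the usual sign of dividing cells in single-cell data.

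A barcode counted as a cell from 3000 unique molecular identifiers (UMIs) and 200 genes upward, with no more than 10% of UMIs from mitochondrial genes. The 4 libraries gave 3878 to 6631 such cells with medians of 6186 to 9352 UMIs, and held 70991150 to 92984713 UMIs in all barcodes. Lists of 4 values follow one order throughout, null replicate 1, null replicate 2, WT replicate 1 and WT replicate 2. Clusters were called radial glia-like, basal progenitor-like or neuron-like from fixed marker lists, and the first pair together is called progenitors. There were 3253, 1765, 2102 and 1750 progenitors and 2863, 1849, 2158 and 1999 neurons. St18 in progenitors stood at 20.1, 63.3, 40.7 and 55 UMIs per 1000000 UMIs of the class (CPM). Because UMIs of the remaining transcript are counted too, these values do not check the labels. Xist stood at 628 and 1356 CPM in null progenitors and at 0.279 and 0.141 CPM in WT progenitors, so the sex of the pooled embryos and the genotype cannot be told apart. Between 4 and 11 cell barcodes were shared by any pair of libraries, where 2.29 to 4.4 were expected from the barcode list.

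The promoters of the members with the most UMIs in progenitors are shown first, because late cell cycle genes are known to carry a cell cycle homology region (CHR), the landing site of the MuvB complexes, beside CCAAT boxes bound by NF-Y. Sequences are from RefSeq on GRCm38.p6 and run 5′ to 3′ along the gene, from 250 bases before to 50 after the start that the RefSeq promoter table gives. For Ube2s and Ube2c that start lies inside the gene's span in GENCODE M21. Capitals mark the CHR letters TTTGAA or TTCGAA and the letters CCAAT, read on both strands, so that some matches appear as their reverse complement. Top2a, the topoisomerase that untangles sister chromatids, lies on the minus strand at chr11:99024140-99024439 and held 4 CHR matches and 6 CCAAT matches. Ube2s, the enzyme that extends ubiquitin chains for the APC/C, lies on the minus strand at chr7:4812291-4812590 and held 1 CHR match and 0 CCAAT matches. Cenpf, a large protein of the outer kinetochore, lies on the minus strand at chr1:189688037-189688336 and held 1 CHR match and 2 CCAAT matches. Ube2c, the enzyme that places the first ubiquitin for the APC/C, lies on the plus strand at chr2:164769679-164769978 and held 1 CHR match and 6 CCAAT matches, of which a pair on opposite strands overlap.
Top2a: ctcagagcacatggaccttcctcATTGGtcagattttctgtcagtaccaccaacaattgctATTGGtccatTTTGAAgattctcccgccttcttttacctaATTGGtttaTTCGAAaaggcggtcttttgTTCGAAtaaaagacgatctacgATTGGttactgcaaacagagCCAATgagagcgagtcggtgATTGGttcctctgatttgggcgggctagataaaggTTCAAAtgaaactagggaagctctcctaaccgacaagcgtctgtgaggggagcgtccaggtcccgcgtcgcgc
Ube2s: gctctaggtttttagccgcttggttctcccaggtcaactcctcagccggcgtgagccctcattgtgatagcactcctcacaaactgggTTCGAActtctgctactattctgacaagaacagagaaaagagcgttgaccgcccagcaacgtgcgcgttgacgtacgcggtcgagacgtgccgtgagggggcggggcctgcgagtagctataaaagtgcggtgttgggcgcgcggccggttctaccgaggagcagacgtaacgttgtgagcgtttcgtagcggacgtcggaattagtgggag
Cenpf: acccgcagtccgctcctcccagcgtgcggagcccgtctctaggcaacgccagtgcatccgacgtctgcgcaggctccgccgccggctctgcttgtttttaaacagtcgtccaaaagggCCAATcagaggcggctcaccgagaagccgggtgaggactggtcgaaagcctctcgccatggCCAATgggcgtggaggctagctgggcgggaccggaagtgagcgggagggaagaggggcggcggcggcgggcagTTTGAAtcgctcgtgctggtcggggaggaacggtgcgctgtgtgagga
Ube2c: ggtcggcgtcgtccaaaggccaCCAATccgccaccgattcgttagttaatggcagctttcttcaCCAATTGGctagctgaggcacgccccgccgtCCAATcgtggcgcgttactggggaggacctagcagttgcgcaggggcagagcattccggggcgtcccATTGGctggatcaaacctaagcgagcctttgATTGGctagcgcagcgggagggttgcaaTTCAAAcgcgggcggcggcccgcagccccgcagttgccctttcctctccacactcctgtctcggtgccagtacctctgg

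Most member promoters held both motifs. Of the 41 members with a promoter in the table used, 32 (78%) held a CHR match, against 21.7% of all 27025 genes. CCAAT was held by 33 members (80.5%), against 41.1% of all genes, and 28 members (68.3%) held both motifs, against 8.61%. The letters TTTGGCGC or TTTCGCGC, forms of the E2F site of S phase genes, were in 2 member promoters (4.88%), against 0.929% of all genes. Among 83 other mitosis genes the CHR share was 59.2% of the 71 with a promoter. Among 44 S phase genes it was 21.9% of the 32 with a promoter, while the E2F letters stood in 28.1% of those. CCAAT was common in these lists too, in 60.6% of the other mitosis genes and 71.9% of the S phase genes. A match is a description of letters in a window and was tested for no function. Aurkb, Ccna2, Cdc25c, Cdca2, Dlgap5, Incenp, Smc4, Spc24 and Tpx2 were not analysed here in this respect. All 50 members are protein-coding genes and lie on 17 chromosomes. Some lie near each other, as Bub1b, Knl1 and Nusap1 on chromosome 2 and Cdca3 and Ncapd2 on chromosome 6.

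All 50 members were higher in progenitors than in neurons in each of the 4 libraries. The summed level of the set in progenitors was 14101, 13994, 12997 and 12952 CPM, and in neurons 1391, 1566, 1170 and 1081 CPM. Neurons therefore held 9.86%, 11.2%, 9% and 8.35% of the progenitor level, a mean of 9.6% ± 1.23 (SD, n = 4 libraries). This contrast is a description with no test, because the clusters were made from the same cells. Cell cycle genes were left out of the clustering, yet 2 basal progenitor clusters were still led by members, with 7 and 8 of their 10 leading genes.

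**Figure D1:**
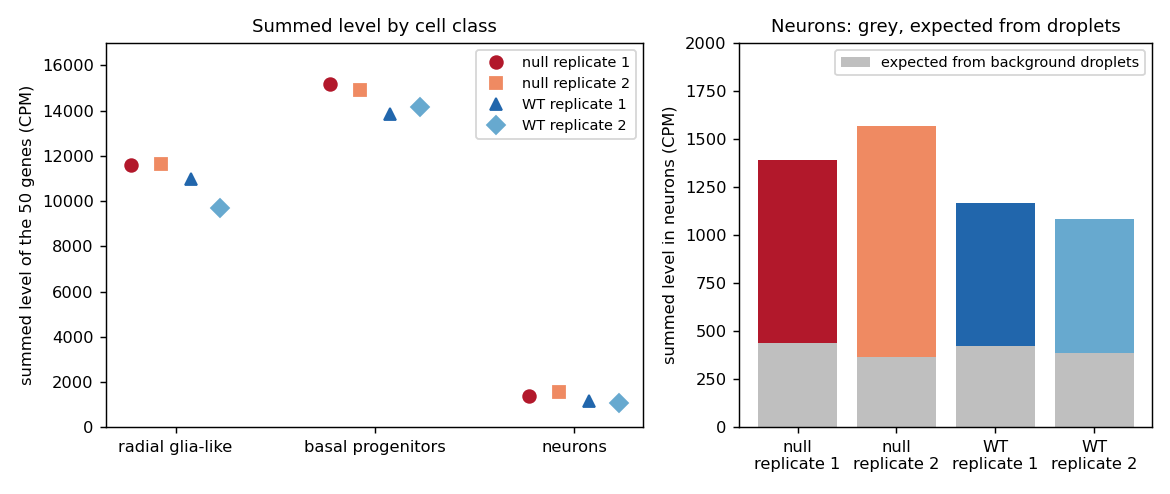
Left, summed CPM of the 50 genes in radial glia-like cells, basal progenitors and neurons, 1 point per library. Right, the summed CPM in neurons as bars, with the part expected from background droplets in grey: the coloured part above it is 954 and 1202 CPM in the null libraries and 745 and 693 CPM in the WT libraries.

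Among progenitors, the clusters named basal held more of the set than those named radial glia-like, a description with no test. The 2 clusters led by members, at 31682 and 28865 CPM, were both named basal. The other basal clusters stood at 1441 to 15221 CPM, so the contrast rests in part on where those 2 were placed. The basal marker list had a mean log2 fold of 0.13 in the cluster at 31682 CPM and of -0.24 in that at 11490 CPM. The remaining basal clusters were at 0.44 to 1.71, and naming went by the lead over the other lists. Sums were 11589, 11643, 10964 and 9680 CPM in radial glia-like cells and 15174, 14913, 13845 and 14137 CPM in basal progenitors. Of the 50 members, 40 were higher in basal progenitors in all 4 libraries. Cenpe, the kinesin that carries chromosomes to the spindle equator, had the widest gap, with a mean log2 ratio of basal over radial glia-like of 0.93. Only Spc24, a subunit of the Ndc80 complex, was higher in radial glia-like cells in all 4 libraries, by a mean log2 ratio of -0.09. Erythroid markers stood at 3009 CPM in the radial glia-like cells of WT replicate 2, against 60.6 to 214 CPM in the other libraries, and their part in its lower sum was not tested.

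The level also followed the clusters closely. Clusters of basal progenitors ran from 1441 CPM in a cluster led by Gsx1 and the cell cycle inhibitor Cdkn1c to 31682 CPM in a cluster led by Gas2l3, Aspm, Sgo2a, Hmmr and Ube2c. Basal clusters led by histone and replication genes stood at 11490 and 15221 CPM, between these ends. Clusters of radial glia-like cells stood at 12050, 9979 and 6463 CPM, the lowest in a cluster led by the glial genes Fabp7, Bcan and Slc1a3. The neuron clusters stood at 979.6 to 1712 CPM, so that the Gsx1-led cluster was the only progenitor cluster in their range.

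Levels by role are given in CPM, a scale on which both null libraries were above both WT libraries for 48.5% of all genes tested in progenitors, so that such an order is no result about a member. The chromosome group made a large part of the set's UMIs. Its 7 members summed to 3558, 4107, 3113 and 3159 CPM in progenitors. Top2a stood there at 1286, 1569, 1271 and 1296 CPM, highest in null replicate 2 and alike in the other libraries. Mki67, the coat protein of mitotic chromosomes that gives the Ki-67 antigen (chr7:135689784-135716361, minus strand), stood at 862, 1058, 621 and 620.1 CPM, so the genotypes did not overlap. Smc4, a condensin ATPase, stood at 582, 638, 502 and 512 CPM and did not overlap either, at a fitted log2 fold change of 0.08 ± 0.11 (SE).

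The Cdk1 and cyclin group summed to 1536, 1304, 1483 and 1468 CPM, lowest in null replicate 2. Cks2, the small subunit that docks Cdk1 on phosphorylated substrates, stood at 387, 327, 445 and 453 CPM, with both null libraries below both WT libraries. Cdk1 itself stood at 274, 227, 266 and 252 CPM and Ccnb1, its cyclin B partner, at 261, 245, 235 and 227 CPM. Cdk1 overlapped between the genotypes, and Ccnb1 did not in CPM but had a fitted log2 fold change of -0.05.

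The 4 APC/C members summed to 2465, 1673, 2176 and 1952 CPM, with both the highest and the lowest value in null libraries. Ube2s stood at 1178, 789, 905 and 706 CPM, Ube2c at 973, 655, 927 and 963 CPM, and the activator Cdc20 at 229, 155, 206 and 204 CPM. For Ube2c and Cdc20, null replicate 2 alone was low. Pttg1, the securin that keeps separase inactive, stood at 85.4, 73, 137 and 79.3 CPM, and WT replicate 1 alone was high.

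The chromosomal passenger complex corrects faulty attachments and later moves to the midzone. Its member Cdca8 (borealin) stood at 351, 317, 375 and 364 CPM and Birc5 (survivin) at 318, 261, 329 and 324 CPM, each lower in both null libraries. Incenp, the scaffold of the complex, went the other way at 204, 192, 154 and 157 CPM. In CPM these members lay on opposite sides of the WT libraries, while Aurkb overlapped at 109, 102, 113 and 106 CPM. The fitted log2 fold change of Incenp was 0.16 ± 0.12 (SE), and no member of the complex passed in progenitors.

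In the kinetochore group, Cenpf stood at 956, 942, 791 and 833 CPM and Cenpe at 419, 446, 316 and 335 CPM, both higher in both null libraries. Cenpa, the histone variant that marks the centromere, stood at 408, 333, 393 and 394 CPM and overlapped. The checkpoint and cohesion group had the lowest sum, 503, 571, 495 and 515 CPM. Its leading members by UMIs were Sgo2a, a shugoshin that protects centromeric cohesion and has the near copy Sgo2b, at 152, 168, 139 and 150.4 CPM, Bub1b, a checkpoint kinase-like protein, at 119, 132, 115 and 119.7 CPM, and Sgo1 at 93.1, 115, 92.8 and 97.2 CPM. The genotypes overlapped for Bub1b and Sgo1 and lay just apart in CPM for Sgo2a, whose fitted log2 fold change was -0.05.

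Of the spindle group, Nusap1, which bundles microtubules near chromosomes, stood at 356, 434, 378 and 402 CPM. Tpx2, the activator of Aurora A, stood at 342, 406, 356 and 385 CPM, and in both genes the null libraries lay at either end. Aspm, a spindle pole protein whose human gene is mutated in microcephaly, stood at 232, 284, 186 and 197 CPM, higher in both null libraries. In the cytokinesis group, Prc1, the bundler of the central spindle, stood at 415, 519, 491 and 501 CPM, Racgap1 of centralspindlin at 198, 227, 186 and 196 CPM, and Ect2 at 99.8, 125, 102 and 104 CPM. Null replicate 1 was the lowest library for Prc1 and Ect2, and null replicate 2 was the highest for all 3.

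Members were not equally restricted to progenitors. The neuron level as a share of the progenitor level had a median of 6.84% over the 50 members and ran from 4.23% to 39%. The lowest were Mki67 at 4.23%, Aspm at 4.65% and Knl1, the scaffold of the outer kinetochore, at 4.92%. The highest were Ube2s at 39%, Ncapd2, a condensin I subunit, at 21.2% and Pttg1 at 15.1%.

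Ube2s stood apart in every library. Its level in neurons was 425, 323, 366 and 271 CPM, and it held 26.6% of all member UMIs in neurons but 6.88% in progenitors. In cells thinned to 3000 UMIs each, 69.4%, 58.9%, 63.8% and 53.6% of neurons held a UMI of Ube2s, against 9.95%, 9.25%, 6.39% and 5.85% for Mki67. Without Ube2s the other 49 members summed to 966, 1244, 804 and 810.3 CPM in neurons, or 7.47%, 9.42%, 6.65% and 6.62% of their progenitor level. The null libraries were thus above the WT libraries with and without it.

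**Figure D2:**
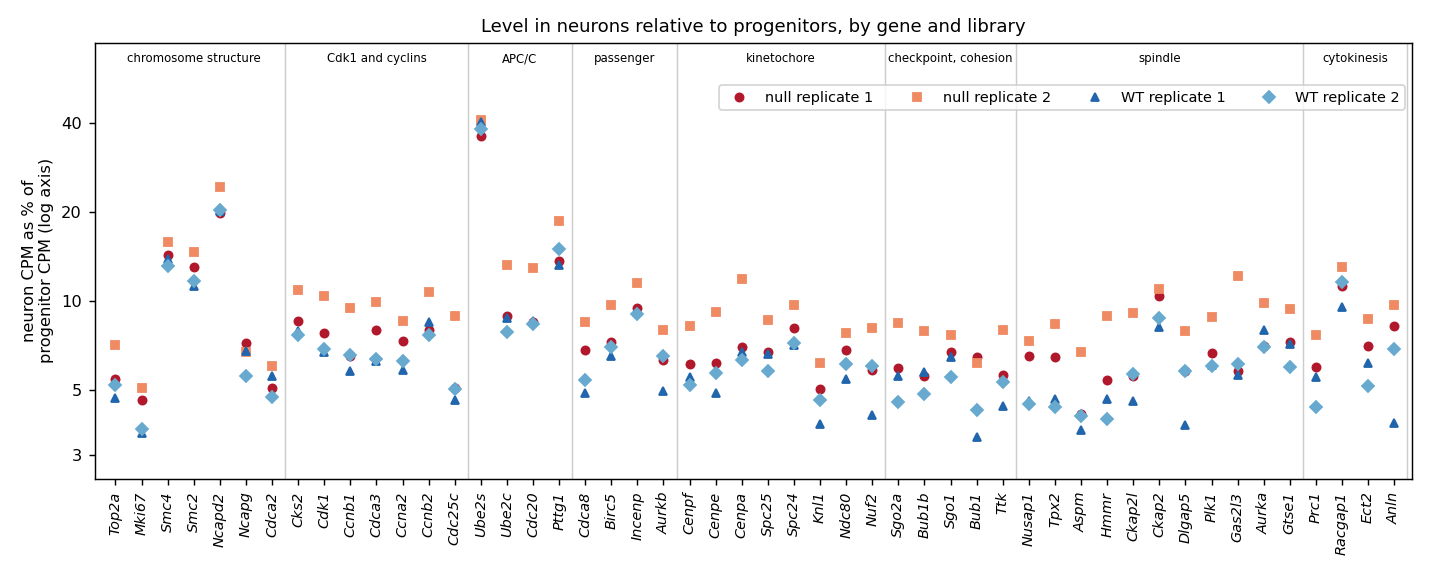
Level of each member in neurons as a percent of its level in progenitors (log axis), 1 point per library, with members grouped by role and ordered by UMIs within a role. Ube2s is near 39% and Ncapd2 near 21.2%, while most members lie below 10%.

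The signal in neurons was set against free RNA. Droplets of 100 to 800 UMIs, a range chosen after seeing the data, held the set at 7347, 7074, 6092 and 5235 CPM. If every neuron had taken up the content of 1 mean droplet of its library, the set would have stood at 437, 365, 424 and 388 CPM in neurons, or 31.4%, 23.3%, 36.3% and 35.9% of what was observed. All 50 members were above this expectation in all 4 libraries. For Mki67 the expectation was 13.7, 11.5, 9.61 and 8.82 CPM, against observed levels of 39.9, 53.7, 22.1 and 22.8 CPM. For Ube2s it was 50.4, 35.3, 41.8 and 31.9 CPM, a small part of its level in each library. Cdk1 was nearest to it, with a mean of 64.4% of its neuron level expected from droplets. Erythroid cells, of which each library had only 31 to 46, held the set at 1177, 535, 631 and 1676 CPM. The same droplet expectation for these cells was 296, 264, 197 and 168 CPM, so they too were above it in each library. They were below the neurons of their own library in 3 of the 4 libraries and above them in WT replicate 2, and precursors of red cells can themselves divide.

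A small share of neurons held many member UMIs. After thinning, a sum of at least 10 was reached by 4.89%, 6.49%, 3.34% and 2.75% of neurons, with exact Clopper-Pearson 95% intervals of 4.13 to 5.74, 5.41 to 7.71, 2.62 to 4.18 and 2.08 to 3.57. These intervals cover counting error only. Without thinning the shares were 29.5%, 46.6%, 16.5% and 12.1%, in neurons with medians of 5923, 8228, 5500.5 and 5498 UMIs. In erythroid cells, with medians of 9951 to 13003 UMIs, the thinned share was 4.35%, 0%, 2.78% and 3.23%, from 2, 0, 1 and 1 cells, and the 0 of 39 cells allows a share of up to 7.69% by 3 counts of the total and 9.03% by the exact interval. The null mean of 5.69% ± 1.13 (SD, n = 2) and the WT mean of 3.04% ± 0.414 (SD, n = 2) differed by 2.65 percentage points, with no overlap (two-sided exact permutation test, p = 0.333, the smallest that 2 against 2 can give).

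In progenitors the same sum was reached by 71.5%, 68.7%, 66.6% and 67.7% of thinned cells. The null mean of 70.1% ± 1.99 and the WT mean of 67.1% ± 0.745 (SD, n = 2 each) differed by 3 percentage points (two-sided exact permutation test, p = 0.333). Without thinning the shares were 88.6%, 89.8%, 82.2% and 82.7%. Null values lay above WT values on both counts, and null cells were deeper. Thinning keeps the scale of library totals, on which all genes had a median log2 fold change of 0.187 in progenitors.

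The order of members within the cell cycle was read from genes outside the set. Progenitors were ranked in each library by 44 S phase genes and by 21 G2M genes that are not members, and the top 20% of each ranking was taken. Every member was higher in G2M-ranked than in S-ranked cells in all 4 libraries, with sums of 29612, 29474, 28117 and 28409 CPM against 6994, 7876, 6744 and 6315 CPM. Progenitors in the lower part of both rankings held 2966, 2876, 2334 and 2719 CPM. These groups are ranges of a score and not cell types, and 74 to 154 cells of a library lay within 1 UMI of the S threshold. Free RNA enters the scores as it does the levels, and its part in them was not tested.

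The S-ranked level, as a share of the G2M-ranked level, had a median of 23.2% over the members. Spc24 was nearly as high in S-ranked cells, at 250.2, 219, 232 and 231 CPM against 273, 247, 291 and 281 CPM, a mean share of 85.6%. The condensin subunits followed, with Smc2, the partner ATPase of Smc4, at 62.6% and Ncapd2 at 49.6%. At the other end stood Gas2l3, which links actin and microtubules at the midbody, at 3.09%, Ube2c at 4.97% and Cdc20 at 6.6%. Gas2l3 stood at 6.15, 7.92, 4.78 and 5.42 CPM in S-ranked cells and at 189, 226, 181 and 184 CPM in G2M-ranked cells, a gap wider than the spread of the libraries. Ube2s again differed from the rest, as its level in cells low for both rankings was a mean of 43.3% of the G2M-ranked level, above its 37.3% in S-ranked cells.

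**Figure D3:**
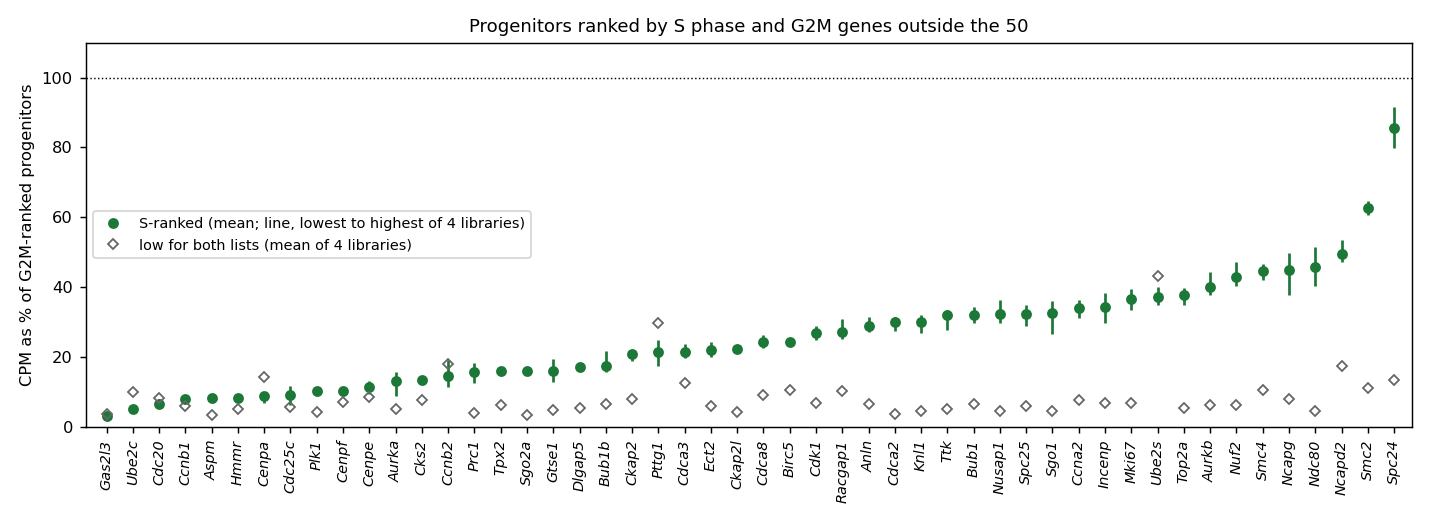
S-ranked level of each member as a percent of its G2M-ranked level in progenitors (circles, mean of 4 libraries, lines from the lowest to the highest library), with cells low for both rankings as diamonds. The S-ranked share runs from 3.09% for Gas2l3 to 85.6% for Spc24, and the dotted line marks 100%.

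Members were detected together in the same progenitors. Across the 1225 pairs of members, Pearson's r of the log thinned counts over cells had a median of 0.27 in each library. The number of pairs above 0 was 1225, 1224, 1225 and 1225, and the highest values, 0.68 to 0.70, belonged to Cenpf with Ube2c, Top2a with Mki67 and Top2a with Nusap1. These cells share a library and the phases of the cycle, so the values are a description over cells.

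Null and WT libraries were then compared, which addresses whether these genes differed between the labelled genotypes in either class. Sex, read from Xist, split the libraries in the same way. Genotype and sex therefore cannot be told apart in any of these comparisons. In progenitors 0 of the 50 members passed an adjusted p of 0.05, where 0.0439% of all genes did (quasi-likelihood test of edgeR, Benjamini-Hochberg adjustment over 13677 genes). At an unadjusted p of 0.05 there were 7 members (14%), against 18.1% of all genes, and DESeq2 called 2 (4%), where it called 2.58% of all genes. The median log2 fold change of the members was -0.06, beside -0.00 over all genes, and 17 of 50 were above 0, where 49.8% of all genes were. In CPM, which divides by library totals alone, both null libraries were above both WT libraries for 25 members (50%), against 48.5% of all genes. Fitted on library totals alone, the median of all genes was 0.187 and that of the members 0.13, so the sign of the members' median turned while its distance from all genes stayed at -0.06.

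The widest differences in progenitors lay in opposite directions within the set. Mki67 had a log2 fold change of 0.43 ± 0.12 (SE), followed by Aspm at 0.24 ± 0.11, Anln, the anillin that anchors the contractile ring, at 0.23 ± 0.12, Cenpe at 0.22 ± 0.11 and Ncapd2 at 0.17 ± 0.11. Pttg1 was at -0.64 ± 0.24, Cks2 at -0.51 ± 0.14, Ube2c at -0.39 ± 0.21, Birc5 at -0.35 ± 0.15 and Cdca8 at -0.33 ± 0.13. Their adjusted p in edgeR lay between 0.155 and 0.43, so none passed. DESeq2 called Mki67 and Cks2, and without the filter on low counts edgeR called these and Pttg1, and on library totals alone it called Mki67. All genes were called at 4.73% without that filter and at 4.4% on library totals alone. Without WT replicate 1, the high library of Pttg1, its value was -0.19, and without WT replicate 2 it was -0.98. Without null replicate 2 Ube2c was at -0.08, Birc5 at -0.16, Cdca8 at -0.20, Cks2 at -0.34, Anln at 0.12 and Aspm at 0.16, each nearer to 0. Without null replicate 1 Ube2c was at -0.78 and Birc5 at -0.57, further from it. Without null replicate 1 there were 26 calls among the members and without null replicate 2 there were 16, while 14.8% to 33.8% of all genes were called in those fits. Without WT replicate 1 the members' median log2 fold change was -0.07, and without WT replicate 2 it was -0.06. In basal progenitors, where 0.0154% of all genes passed, 0 members did by edgeR and 0 by DESeq2, with 4 at an unadjusted p of 0.05 in edgeR (8%, against 14% of all genes).

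A few members passed in radial glia-like cells. Mki67 and Cenpe were higher and Cks2 and Pttg1 lower in null, 4 of 50 members (8%), against 4.31% of all 11967 genes (edgeR, Benjamini-Hochberg adjusted p under 0.05). The 2 higher members compare with 1.05% of all genes and the 2 lower with 3.26%. Fitted on library totals alone, where the median of all genes was 0.224, 10 members were called higher and 2 lower, with 11.9% and 1.94% of all genes, and the members' median was 0.19. At an unadjusted p of 0.05 there were 14 members (28%), against 22.3% of all genes, and DESeq2 called 6 (12%), where it called 4.87% of all genes. The members' median log2 fold change was -0.03, beside 0.01 over all genes. In basal progenitors the same genes, none of which passed, were at 0.40 for Mki67, 0.19 for Cenpe, -0.47 for Cks2 and -0.61 for Pttg1, and the difference from radial glia-like cells was not tested.

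Mki67 stood at 732 and 784 CPM in the null and at 460.1 and 376 CPM in the WT radial glia-like cells, and its log2 fold change was 0.64 ± 0.13 (SE; edgeR adjusted p = 0.0163). Cenpe stood at 288 and 292 CPM against 183 and 172 CPM, 0.50 ± 0.12 (adjusted p = 0.0413, edgeR). In both genes the 2 null libraries lay close together and clear of the WT libraries. Marker lists are given in CPM, a scale on which the median of all genes was itself higher in null in these cells. On it, markers of the caudal ganglionic eminence were higher in null, at 109.7 and 124 CPM against 71.8 and 60.4 CPM. So were those of the lateral ganglionic eminence, at 235 and 266 CPM against 211 and 200.3 CPM. Basal progenitor markers were also higher, at 965 and 1023 CPM against 899 and 807 CPM. So were radial glia markers, at 5577 and 5604 CPM against 4936 and 5371 CPM. The neuron markers overlapped, at 449 and 455 CPM against 369.9 and 652 CPM. The part of these markers in the values was not tested. Cks2 stood at 339 and 351 CPM against 463 and 428 CPM, -0.58 ± 0.12 (adjusted p = 0.0195, edgeR). Pttg1 stood at 70 and 62.9 CPM against 109 and 75.8 CPM, -0.69 ± 0.16 (adjusted p = 0.0288, edgeR), and WT replicate 1 was again far above the rest. Without WT replicate 1 there were 0 calls among the members by edgeR, with 7 at an unadjusted p of 0.05. In that fit Mki67 was at 0.79, Cenpe at 0.54 and Cks2 at -0.53, while Pttg1 was at -0.40. Without WT replicate 2 there was 1 call, Pttg1 at -0.92, while Mki67 at 0.50, Cenpe at 0.45 and Cks2 at -0.64 no longer passed. These fits called 0.87% and 0.725% of all genes. Without null replicate 1 there were 18 and without null replicate 2 there were 9, where 23.1% and 9.92% of all genes were called. Cenpe no longer passed with equal cells per cluster, at 0.46, nor Pttg1 with doublets kept, at -0.64, or with cell cycle genes kept in the clustering, at -0.68.

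**Figure D4:**
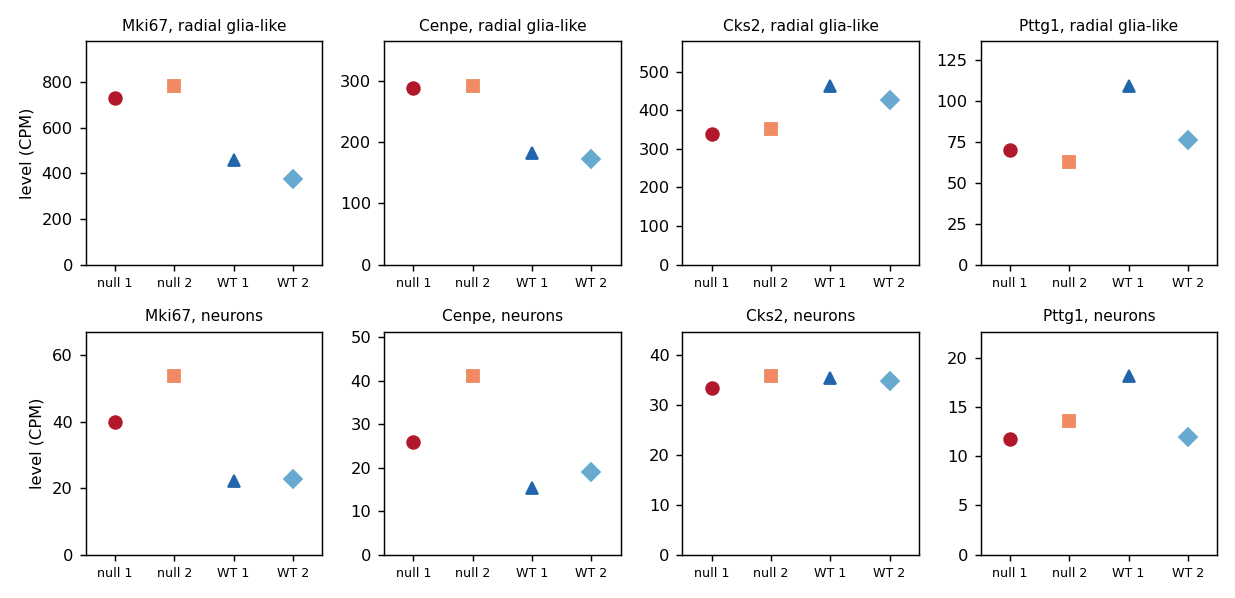
CPM of the 4 members that passed in radial glia-like cells, shown there (top) and in neurons (bottom), 1 point per library, each axis from 0. Mki67 and Cenpe are higher in both null libraries in both classes, and Pttg1 is high in WT replicate 1 alone.

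In neurons most members lay higher in null, with a single call. Mki67 rose from 22.1 and 22.8 CPM in the WT to 39.9 and 53.7 CPM in the null libraries, with a log2 fold change of 0.90 ± 0.15 (SE; edgeR, Benjamini-Hochberg adjusted p = 0.0391). It was the 1 member of 50 (2%) past the threshold, where 0.576% of all 13362 genes were, and 0.105% were called higher. At an unadjusted p of 0.05 there were 18 members (36%), against 17.7% of all genes. All 18 were higher, as were 7.28% of all genes at that level. The members' median log2 fold change was 0.35, beside -0.00 over all genes, and 46 of the 50 were above 0, where 49.8% of all genes were. In CPM, both null libraries were above both WT libraries for 43 members (86%), against 42.3% of all genes. DESeq2 gave no adjusted p for 44 of the 50 members in neurons, Mki67 among them, and called 1 of the other 6, Cenpf, where it called 2.32% of all genes. With cell cycle genes kept in the clustering, Mki67 was at 0.86 and no longer passed.

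Several other members had values of similar size without passing. Anln stood at 4.63 and 6.95 CPM against 1.84 and 3.3 CPM, a log2 fold change of 1.03 ± 0.30. Cenpe stood at 25.8 and 41 CPM against 15.4 and 19.1 CPM, 0.80 ± 0.19, and Aspm at 9.63 and 19.2 CPM against 6.78 and 7.99 CPM, 0.80 ± 0.27. Gas2l3 stood at 3.82 and 10.1 CPM against 3.35 and 3.65 CPM, 0.82 ± 0.37. In each of these null replicate 2 was the highest library. The lowest values were those of Pttg1 at -0.40 ± 0.20 and Cks2 at -0.17 ± 0.12, while Ube2c was at -0.00 ± 0.12 and Ube2s at 0.09 ± 0.18.

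The size of the median depended on null replicate 2. Without it the median over the members in neurons was 0.20, and Mki67 was at 0.73. Without null replicate 1 the median was 0.51 and 21 members passed, all higher, where 6.98% of all genes were called higher. With the droplet expectation taken off each library, an alternative chosen after seeing the data, the median was 0.69 and 1 member passed, Mki67 at 1.19.

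Some marker lists moved with the neuron result and others did not. In neurons, the 10 radial glia markers summed to 912, 940.4, 768 and 712 CPM and the 8 basal progenitor markers to 479, 429, 411 and 351 CPM, each higher in both null libraries. The same held for the 7 markers of the lateral ganglionic eminence, at 757, 815, 694 and 518 CPM, and the 5 of the caudal ganglionic eminence, at 163, 209, 90.5 and 136 CPM. None of these markers was at 0 in neurons. This order in CPM was that of 42.3% of all genes there. The neuron markers overlapped, at 7729, 7208, 6831 and 7232 CPM. The erythroid markers were lower in both null libraries, at 96, 97.3, 125 and 98.6 CPM, as were the endothelial and mural lists. The microglia and oligodendrocyte precursor lists overlapped, and the pallial list was higher in null. The neuron clusters differed in size as well. A cluster led by Rprm and Npy held 10.8%, 2.92%, 24.1% and 20.7% of neurons. Its set level was 3759 CPM in the 54 cells of null replicate 2 against 1300 to 1822 CPM elsewhere. A cluster led by Plxna4 and Neb held 14%, 21.7%, 4.73% and 3.95%, at 1777, 1805, 1293 and 1274 CPM. Npy, Maf, Neb, Plxna4 and Gucy1a1 were among the leading genes of both clusters. With cell cycle genes kept in the clustering there was 1 such cluster, led by Npy, Neb and Rprm. It held 773, 417, 672 and 546 of 2983, 1888, 2179 and 2033 neurons. So the shares of these 2 clusters depend on how such neurons were split. With equal numbers of cells per cluster from every library, the median over the members was 0.43 and 1 of them passed. The part of these markers and of null neurons' greater depth in the result was not tested.

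The null against WT difference was then compared between the classes in a single fit with a term for each library. In that fit the null over WT change was higher in neurons than in progenitors for all 50 members, by 0.04 for Ube2s up to 0.83 for Anln, with a median difference of 0.44 on the log2 scale, where 61.7% of all 14289 genes were above 0 and their median was 0.04. By edgeR's interaction test 7 members (14%) passed after Benjamini-Hochberg adjustment, against 0.259% of all genes, and 42 had an unadjusted p under 0.05, against 7.93%. All of these were positive, as were 0.224% and 6% of all genes. They were Nusap1, Tpx2, Cdca8, Mki67, Cdca3, Bub1 and Prc1. In 6 of the 7 the fitted value was below 0 in progenitors and above 0 in neurons, and Mki67 alone was above 0 in both.

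Among the 7, the difference was largest in Tpx2 at 0.79 ± 0.12 (SE, adjusted p = 0.000972, edgeR) and in Bub1, the kinase that brings the checkpoint to kinetochores, at 0.79 ± 0.17 (adjusted p = 0.0438, edgeR). Tpx2 in neurons stood at 22.1 and 33.8 CPM in null and at 16.6 and 16.8 CPM in WT libraries, without overlap, where its progenitor values had overlapped. Nusap1 in neurons stood at 23.1 and 31.8 CPM against 17.3 and 18.1 CPM, a difference of 0.69 ± 0.10 (adjusted p = 0.00086, edgeR). Cdca8 stood at 23.9 and 26.8 CPM against 18.4 and 19.6 CPM in neurons, the reverse of its order in progenitors, and the difference was 0.64 ± 0.11 (adjusted p = 0.00704, edgeR). For Mki67 it was 0.50 ± 0.09, for Cdca3, which helps trigger entry into mitosis, 0.55 ± 0.12, and for Prc1 0.54 ± 0.12 (adjusted p = 0.0109, 0.0373 and 0.0463, edgeR). Prc1 in neurons stood at 24.8 and 39.9 CPM against 27.1 and 22 CPM, so its neuron values overlapped, unlike those of Cdca3 at 19.6 and 17.9 CPM against 14.7 and 14.9 CPM. Without null replicate 2 the 7 calls did not hold, and the median difference was 0.16. Without null replicate 1, 8 passed, and without WT replicate 1 or 2, 14 and 13, where 0.0694%, 1.01% and 0.291% of all genes did. Of the 7 named, Nusap1, Tpx2 and Cdca8 passed in each of these 3 fits, while Bub1, Cdca3, Mki67 and Prc1 did not without null replicate 1, nor Bub1 without WT replicate 1, nor Prc1 without WT replicate 2. With doublets kept Bub1 and Cdca3 no longer passed, while the other 5 of the 7 did. On library totals alone Bub1, Cdca3 and Prc1 no longer passed.

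**Figure D5:**
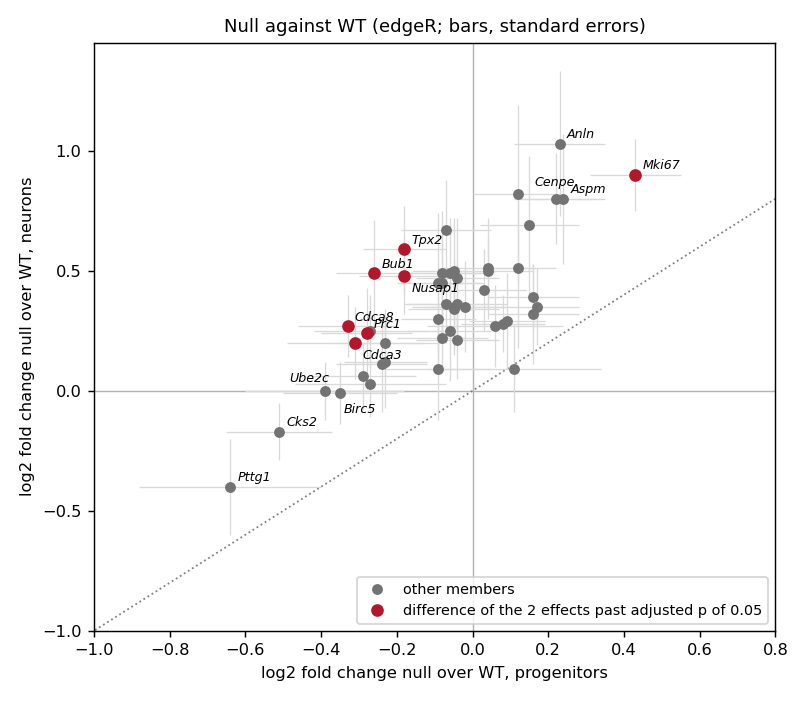
Log2 fold change of null over WT of the 50 members in progenitors (x axis) and neurons (y axis), with standard errors as bars and the dotted line where both are equal. All points lie above that line except Ube2s, at 0.11 and 0.09 just below it, and the 7 in red passed an adjusted p of 0.05 for the difference.

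Genes of mitosis outside the set were read the same way. Of the 83 other mitosis genes, 0 passed in progenitors by edgeR, with 12 at an unadjusted p of 0.05, and their median log2 fold change was -0.04. Of all genes, 18.1% had such an unadjusted p there. The lowest were Cenpw at -0.62 ± 0.11, Depdc1b at -0.43 ± 0.11 and Dsn1 at -0.41 ± 0.13, and the highest Numa1 at 0.49 ± 0.11, Cit at 0.32 ± 0.11 and Iqgap3 at 0.31 ± 0.12. In neurons 66 of the 83 were above 0, with a median of 0.19 and 0 calls by edgeR, 15 at an unadjusted p of 0.05. Of all genes, 49.8% were above 0 there and 17.7% had such a p. In the difference between the classes 3 of the 83 passed, where 0.259% of all genes did. The 44 S phase genes had medians of -0.10 in progenitors and 0.06 in neurons, with 0 calls in either by edgeR. At an unadjusted p of 0.05 there were 7 and 4 of them, against 18.1% and 17.7% of all genes. In the difference between the classes 2 of the 44 passed and 24 had an unadjusted p under 0.05, all higher in neurons, with 39 above 0 and a median of 0.23. Of all genes, 0.259% passed in that fit, 6% were higher at such a p, and 61.7% were above 0.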

How the data were processed

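Reads had been processed by the authors in Cell Ranger (version 5.0.1 and build GRCm38 per the labels, Cell Ranger 4 per the file headers), who deposited raw UMI counts per gene and barcode for each of the 4 libraries. Replicates were numbered in sample order. From these counts, cells with at least 3000 UMIs, 200 genes and at most 10% mitochondrial UMIs were taken, which gave 6631, 3878, 4511 and 4011. Scrublet (scanpy 1.11.5) called at most 2 cells per library, too few for a working caller, so the highest scores were removed at 0.8% per 1000 cells (352, 120, 163 and 129 cells). Cells were clustered (Leiden, leidenalg 0.10.2, resolution 1.4, 49 components, 2000 variable genes without cell cycle genes). A cluster was named where the mean log2 fold of a marker list led by 0.5 and 3 markers were detected in 25% of cells, limits chosen with these data in view. Cells of other or no class were left out.

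UMIs were summed per library and class and tested in edgeR 4.0.16 (R 4.3.3) with TMM, filterByExpr, a two-sided quasi-likelihood test, adjusted by Benjamini-Hochberg at 0.05. All 50 members passed the filter in every fit. DESeq2 1.42.0 was an alternative, and the edgeR code was tested on simulated data. CPM is per 1000000 UMIs of the class in a library. UMIs count transcripts by their ends and are not divided by length. Where genes or role groups are ranked by level, the ranking is of UMIs counted, and no test compared levels between genes. For shares, cells were thinned to 3000 UMIs. Fewer transcribing cells and less RNA per cell cannot be told apart in summed counts.

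The members and lists were chosen with earlier results of these data known. Genes were named by rule: per role the 3 with the most UMIs, the ends of each ranking (neuron share, S share, fold change in progenitors), and members past the threshold. Lists, from textbook knowledge, were 83 other mitosis, 44 S phase and 21 G2M genes and class markers. Alternatives changed the scaling, the filter, the tool, the doublets, the UMI minimum, the genes clustered on, the cells per cluster and each library in turn. Taking off the droplet background was added after seeing the data.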

Additional observations from a re-analysis of the deposited data

Results flagged for a closer look

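For 7 members the change from WT to null differed between neurons and progenitors by a test of that difference itself (edgeR's interaction term, neurons minus progenitors, log2 scale). The values were 0.79 for Bub1, 0.55 for Cdca3, 0.64 for Cdca8, 0.50 for Mki67, 0.69 for Nusap1, 0.54 for Prc1 and 0.79 for Tpx2. Each was above 0 with any 1 library left out, and without null replicate 2 the values were between 0.27 for Prc1 and 0.76 for Bub1 with no call. Without null replicate 1 the calls of Bub1, Cdca3, Mki67 and Prc1 were lost, without WT replicate 1 that of Bub1, and without WT replicate 2 that of Prc1. With the droplet background taken off they were 1.55, 0.92, 1.08, 0.80, 1.37, 0.97 and 1.19 in the same order, and the calls of Mki67, Nusap1 and Tpx2 held.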

How the results depend on the processing

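No paired analysis was possible because the labels carry no replicate numbers. Counts of members called depended on the setting. Against 0 in progenitors, library totals alone gave 1, no filter on low counts 3, DESeq2 2 (with 4.4%, 4.73% and 2.58% of all genes), and leaving out 1 library 0 to 26. Against 4 in radial glia-like cells, library totals alone gave 12 (13.8% of all genes) and leaving out 1 library 0 to 18. Against 0 in basal progenitors, no filter gave 2 (2.83% of all genes) and leaving out 1 library 0 to 23. The 23 came without null replicate 1, where 29.6% of all genes were called and the members' median log2 fold change was -0.09. Against 1 in neurons, library totals alone gave 4, no filter 2 (1.72% and 1.34% of all genes), cell cycle genes kept in clustering 0 by edgeR with 17 at an unadjusted p of 0.05, and leaving out 1 library 1 to 21. Against 7 for the difference between classes, library totals alone gave 4 (0.175% of all genes), the droplet background taken off 3, and leaving out 1 library 0 to 14. With 1 library of a genotype left, it is assumed to vary like the others.

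The neuron share of the progenitor level, 9.6%, was 10.9% with doublets kept and 6.88% with the droplet background taken off. The median S-ranked share, 23.2%, was 19.3% with the top 10% of each ranking. The difference in shares of cells with a high sum kept its direction in all alternatives tried, none of which changed the scaling. With 1 library left out it was 1.6 to 4.4 points in progenitors and 1.85 to 3.45 in neurons. With sums of at least 5 and at least 20 it was 3.59 and 2.76 points in progenitors and 8.34 and 0.795 in neurons. No gene's fold change that was tracked (113 alternatives of called values and 130 of the 10 extremes in progenitors) turned its direction, 33 of the 113 lost the call and 22 of the 130 gained one. The cause was not tested in any case. In neurons the lowest member rested on 105 UMIs, and DESeq2 gave no adjusted p for 44 members.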

Other observations

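In cells outside the classes compared, the set stood at 7916 CPM in an unnamed cluster of 175 cells led by Snhg11, Pfkp and Meg3, where 40% of thinned cells held at least 10 member UMIs. Microglia-like cells stood at 3665 CPM over 105 cells and the 33 oligodendrocyte precursor-like cells at 6481 CPM. The 63 pallial-like neurons stood at 1037, 2176, 797 and 632 CPM, above the MGE neurons of the same library in null replicate 2 and below them in the others.

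Within neurons, cells with at least 10 thinned member UMIs carried 18%, 28.2%, 12.6% and 14.8% of the set's UMIs, so most of the signal lay in cells with fewer. The cluster led by Shh, Zic1 and Lhx8 stood at 1558, 1966, 1130 and 1366 CPM, and the one led by Ebf1, Crabp1 and Isl1 at 1081, 1719, 983 and 1036 CPM. In the latter null replicate 2 alone was high.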
